A study of Mus musculus with 4 samples.

Results

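The genes described here mark the alveolar macrophage (AM), the resident phagocyte of the airspaces, and encode the signals that maintain it. They were taken from a list of 35 names, and 33 had a probe set that the platform's annotation ties to 1 gene symbol, out of 19946 genes measured. Among the 33 are 19 marker genes and 14 regulators. *Ear1* and *Ear2*, eosinophil-associated ribonucleases and AM markers, had no such probe set and have no value here. RNA came from AM obtained by bronchoalveolar lavage from untreated *Trem-2*-/- mice (labelled as backcrossed 10 times to C57/Blk6) and from WT mice of C57/Blk6 background. All mice were 8 to 10 weeks old. Each genotype had 2 Affymetrix mouse gene arrays, and each array held RNA of pooled mice. *Trem-2*-/- mice lack the receptor in every tissue, so these groups do not separate its absence in AM from its absence elsewhere, and the sources used here do not give the number of mice per pool or whether pools share mice. Each p-value below is thus set against array-to-array variation alone, part or all of which could be technical.

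AM arise from fetal precursors that settle in the lung around birth. Granulocyte-macrophage colony-stimulating factor (GM-CSF), made largely by the alveolar epithelium, and transforming growth factor beta (TGF-beta) induce the nuclear receptor PPAR-gamma in these cells. PPAR-gamma drives the lipid-handling programme with which AM clear surfactant, and the transcription factors BHLHE40 and BHLHE41 maintain AM identity and self-renewal. Without GM-CSF signalling, surfactant accumulates in the airspaces.

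The authors normalized the arrays by RMA (robust multi-array average), and all values below are log2 RMA values or differences between them. *Trem2* itself, the targeted gene, had 7.64 and 7.45 in *Trem-2*-/- cells against 9.58 and 9.74 in WT cells, which is a difference of -2.11 with a standard error of 0.10 (adjusted p = 0.0009 from limma). Pearson's r over all 35557 probe sets was 0.995 between the *Trem-2*-/- arrays, 0.994 between the WT arrays and 0.992 to 0.993 between genotypes. Permuting 2 arrays against 2 in an exact two-sided test yields no p under 0.333 for any gene, and the comparison therefore rests on limma over all genes.

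Markers of AM were bright in both genotypes. *Pparg* and *Chil3*, a secreted chitinase-like lectin, lay above the upper quartile of all values (8.13 to 8.17) on every array, as did the integrin gene *Itgax*, the lectin gene *Siglecf* and the scavenger receptor gene *Marco*. *Car4* lay between the quartiles, and *Ear2* could not be checked. In all, 26 of the 33 genes were above the upper quartile on all 4 arrays. *Il18rap*, a subunit of the interleukin-18 receptor, was the dimmest, with 4.57 and 4.45 in *Trem-2*-/- cells and 4.54 and 4.64 in WT cells, just above the lower quartile (4.39 to 4.40), and a difference in it might not be detectable.

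In *Trem-2*-/- AM, 2 of the 33 genes rose, *Car4* and *Fabp1*, no gene fell, and 31 missed the threshold (limma, Benjamini-Hochberg adjusted p below 0.05 over all 19946 genes). This is 6.06% of these genes, against 0.567% of all genes in either direction and 0.431% for increases alone. Both are marker genes, and none of the 14 regulators passed. The median log2 fold change was 0.0019 over the 33 genes and -0.02 over all genes, with 17 genes above 0 and 16 below. A difference of less than 0.2 on the log2 scale was found in 29 of the 33 genes (87.9%), against 85.7% of all genes, and one of at least 0.5 only in the 2 that rose, against 1.24% of all genes.

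**Figure D1:**
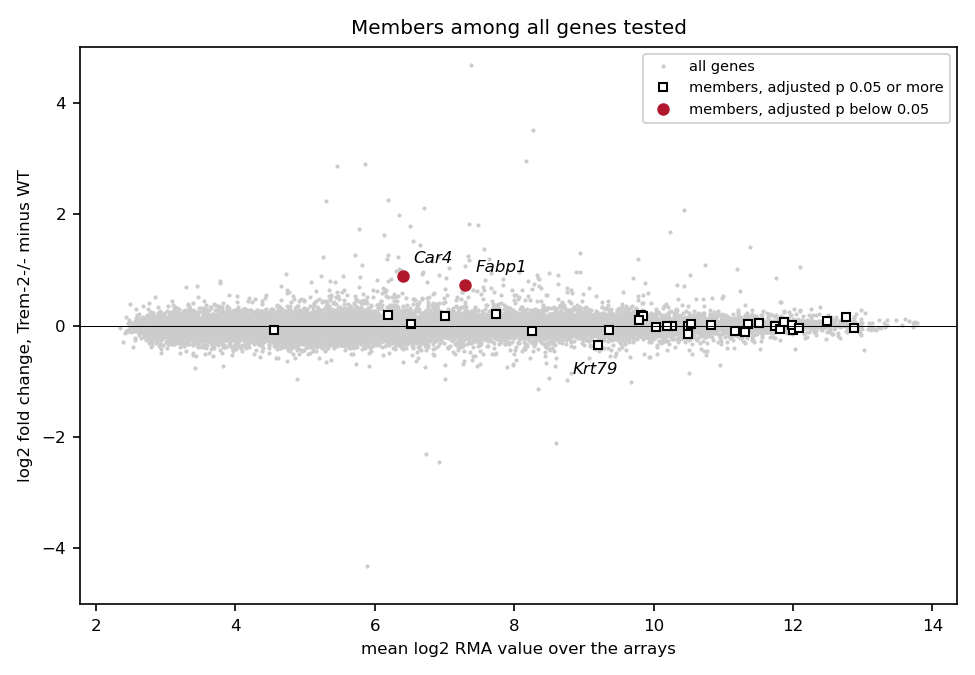
Log2 fold change, *Trem-2*-/- with WT subtracted, plotted over the mean log2 RMA value over the 4 arrays, for 19946 genes (grey) and the 33 genes of the AM list. Red circles mark *Car4* at 0.90 and *Fabp1* at 0.74, the 2 that passed limma, and open squares the 31 that did not, which lie between -0.35 (*Krt79*) and 0.21 (*Cidec*).

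*Car4* encodes carbonic anhydrase IV, a membrane-anchored enzyme that interconverts carbon dioxide and bicarbonate. Its probe set (10379866) had 6.85 and 6.85 in *Trem-2*-/- cells against 5.81 and 6.10 in WT cells. The groups did not overlap, and the *Trem-2*-/- arrays were nearly equal (SD 0.00097, n = 2), while the WT arrays had an SD of 0.21 (n = 2). The log2 fold change was 0.90 (standard error 0.11, 95% interval 0.63 to 1.16, adjusted p = 0.0353 from limma), a 1.86-fold difference that ranked 64 of 19946 by size. *Fabp1* encodes the liver-type fatty acid binding protein, a cytoplasmic lipid carrier. Its probe set (10538965) had 7.78 and 7.55 in *Trem-2*-/- cells against 6.91 and 6.95 in WT cells, again without overlap, and here the spread lay between the *Trem-2*-/- arrays. The log2 fold change was 0.74 (standard error 0.10, 95% interval 0.50 to 0.97, adjusted p = 0.0453 from limma), or 1.67-fold. Significance analysis of microarrays (SAM), the test named in the study's methods, called the same 2 genes as higher at a false-discovery rate of 5%, where it called 0.983% of all genes, and 0.887% as higher. When single arrays were dropped, the log2 fold change was 0.75 to 1.04 for *Car4* and 0.62 to 0.85 for *Fabp1*. Neither call held in all of these fits, in which fewer genes of the whole table passed too.

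The 250 bases before the start sites of *Car4* and *Fabp1* are shown because these are the 2 genes that rose. They are RefSeq sequence of assembly GRCm38.p6, at chr11:84957504-84957753 and chr6:71199629-71199878, both on the plus strand, 5′ to 3′. Capitals mark matches to any motif of a fixed set searched on both strands, the core PPAR motif AGGTCA, its paired form (AGGTCA repeated after 1 base), the E box CACGTG, the PU.1 site GAGGAAGT, the C/EBP site TTGCNNAA and the TATA box TATAAA.
*Car4*: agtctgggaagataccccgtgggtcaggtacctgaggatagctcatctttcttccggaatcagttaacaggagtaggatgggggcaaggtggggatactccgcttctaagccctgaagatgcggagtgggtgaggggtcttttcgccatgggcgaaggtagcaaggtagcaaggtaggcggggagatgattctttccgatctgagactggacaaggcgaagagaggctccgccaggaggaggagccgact
*Fabp1*: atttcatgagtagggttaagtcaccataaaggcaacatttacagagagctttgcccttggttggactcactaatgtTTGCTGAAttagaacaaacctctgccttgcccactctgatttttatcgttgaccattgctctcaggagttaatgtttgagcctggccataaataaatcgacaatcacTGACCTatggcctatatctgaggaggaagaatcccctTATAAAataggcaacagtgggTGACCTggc
The *Fabp1* window held a TATA box starting 30 bases before the start site, 2 core PPAR motifs on the minus strand and 1 C/EBP site, and the *Car4* window held none of the motifs. Of the 35 listed genes, 24 matched a promoter sequence, and of these 5 held a core PPAR motif in a window (*Fabp1*, *Ear6*, *Plet1*, *Kcnip4* and *Pparg*), while 14% of 32851 promoter windows of this length held one. The paired form, with every letter of both repeats required, was in none of the 24 and in 0.0335% of all windows. A paired form with any mismatch would not be found or marked, so its absence here is one of exact matches only. A C/EBP match was found for 8 of the 24 genes and in 9.56% of all windows. Some genes have several windows, and a match describes letters only.

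The other lipid-handling markers did not pass the test. *Fabp4*, a fatty acid carrier and well-known PPAR-gamma target, had 10.25 and 10.27 in *Trem-2*-/- cells and 10.26 and 10.27 in WT cells, and its arrays overlapped (log2 fold change -0.0045, 95% interval -0.18 to 0.17). *Fabp5*, the epidermal-type carrier, had 11.30 and 11.20 in *Trem-2*-/- cells against 11.37 and 11.37 in WT cells, so both *Trem-2*-/- arrays lay below both WT arrays. Its log2 fold change was -0.12 (95% interval -0.30 to 0.06), and -0.14 on a further probe set (10490838) that was not kept. *Cidec*, which promotes lipid droplet growth, had 7.89 and 7.81 in *Trem-2*-/- cells against 7.64 and 7.64 in WT cells. Its log2 fold change of 0.21 (95% interval 0.03 to 0.39) did not pass after adjustment (adjusted p = 0.369 from limma). Of the 3 fatty acid binding protein genes of the AM list, *Fabp1* alone passed, and whether its change differed from those of *Fabp4* and *Fabp5* was not tested.

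**Figure D2:**
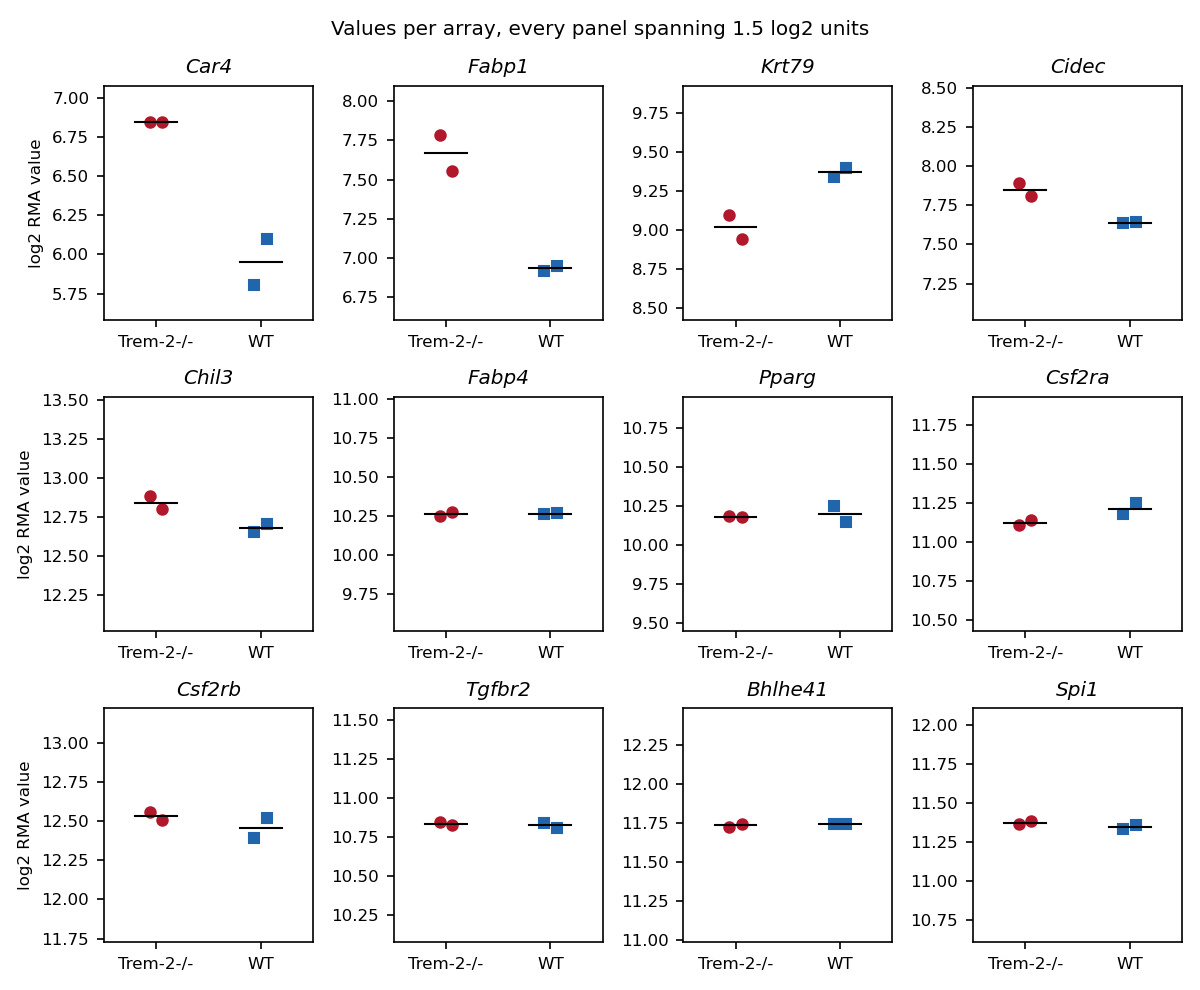
Log2 RMA value on each array for 12 genes of the AM list, with *Trem-2*-/- arrays as red circles, WT arrays as blue squares and black lines for the means of 2 arrays, and every vertical axis spanning 1.5 log2 units. The genotypes stand apart in *Car4* and *Fabp1*, while the values of *Fabp4*, *Pparg*, *Csf2rb*, *Tgfbr2* and *Bhlhe41* overlap.

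Among the remaining markers the largest difference was in *Krt79*, a keratin gene typical of mouse AM, with 9.10 and 8.95 in *Trem-2*-/- cells against 9.34 and 9.40 in WT cells. The groups did not overlap, but the log2 fold change of -0.35 (standard error 0.08, 95% interval -0.55 to -0.14) did not pass over all genes (adjusted p = 0.207 from limma). *Chil3* had 12.88 and 12.80 in *Trem-2*-/- cells against 12.65 and 12.70 in WT cells (log2 fold change 0.16, adjusted p = 0.489 from limma). Both *Krt79* and *Chil3* passed when limma was given an intensity trend and robust variance (adjusted p = 0.00862 and 0.0324 from limma), a setting under which 3.35% of all genes passed.

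The paired inhibitory and activating receptors of the CD200 family lay higher on both *Trem-2*-/- arrays without passing the test. *Cd200r1*, the inhibitory receptor, had 9.85 and 9.99 in *Trem-2*-/- cells against 9.76 and 9.70 in WT cells (log2 fold change 0.19, 95% interval -0.01 to 0.39). *Cd200r4*, an activating relative, had 9.88 and 10.01 in *Trem-2*-/- cells against 9.68 and 9.84 in WT cells (0.18, 95% interval -0.04 to 0.40). The 2 genes are related in sequence and lie on chromosome 16, and whether their probes share signal is not known here. *Ear6*, the only measured ribonuclease of its family in the list, had 7.09 and 7.09 in *Trem-2*-/- cells against 6.99 and 6.85 in WT cells (0.16, adjusted p = 0.508 from limma), and signal from its near-identical relatives cannot be told apart from its own.

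Several bright markers differed by little. *Plet1*, a surface protein of AM, had 11.96 and 11.98 in *Trem-2*-/- cells against 12.05 and 12.04 in WT cells (log2 fold change -0.08, standard error 0.07, 95% interval -0.25 to 0.10, adjusted p = 0.738 from limma). *Atp6v0d2*, a subunit of the proton pump that acidifies lysosomes, had 12.87 and 12.85 in *Trem-2*-/- cells against 12.90 and 12.91 in WT cells (-0.05, standard error 0.07, 95% interval -0.22 to 0.12, adjusted p = 0.827 from limma). Both lay lower on each *Trem-2*-/- array, by amounts that limma did not call. The methods' t-test, named there for comparisons between groups and not for the arrays, was also run on the array values. At an unadjusted threshold of 0.05 it passed 6 of the 33 genes, where 9.19% of all genes passed. These were *Car4*, *Fabp1* and *Cidec* as higher and *Plet1*, *Atp6v0d2* and *Tgfbr1* as lower. None of the 33 passed it after Benjamini-Hochberg adjustment. *Flt1*, a receptor of vascular endothelial growth factor, had 10.39 and 10.44 in *Trem-2*-/- cells against 10.63 and 10.50 in WT cells (-0.15, adjusted p = 0.551 from limma).

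*Cd2*, an adhesion molecule best known from T cells and also a marker of mouse AM, had 11.76 and 11.81 in *Trem-2*-/- cells against 11.86 and 11.82 in WT cells (-0.06). Of 12 measured markers of T and NK cells it was the only one above the upper quartile on all arrays. *Slc7a2*, a cationic amino acid transporter, *Net1*, a guanine nucleotide exchange factor, *Perp*, a membrane protein of cell junctions and apoptosis, *Kcnip4*, a potassium channel interacting protein, and *Il18rap* had log2 fold changes between -0.10 and 0.05 (adjusted p = 0.659 to 0.929 from limma).

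The GM-CSF receptor was bright on every array and did not differ past the threshold. *Csf2ra*, the ligand-binding alpha chain, had 11.11 and 11.14 in *Trem-2*-/- cells against 11.18 and 11.25 in WT cells, a log2 fold change of -0.09 (95% interval -0.27 to 0.09). *Csf2rb*, the signalling beta chain shared with the receptors of interleukin-3 and interleukin-5, had 12.56 and 12.51 in *Trem-2*-/- cells and 12.39 and 12.52 in WT cells (0.08, 95% interval -0.12 to 0.27). *Csf2rb2*, the second beta chain of the mouse, dedicated to interleukin-3, had 11.97 and 11.84 in *Trem-2*-/- cells and 11.82 and 11.86 in WT cells (0.06, 95% interval -0.13 to 0.26). The beta chain genes are close copies, both on chromosome 15, so their probe sets may share signal. For the 3 receptor genes the adjusted p was 0.704 to 0.814 from limma.

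Of 20 other genes of the GM-CSF pathway (the ligand *Csf2*, kinases, STAT proteins, feedback inhibitors and targets), none passed in limma or SAM. The largest differences were in *Socs3*, a feedback inhibitor of cytokine receptors (log2 fold change 0.41, adjusted p = 0.350 from limma), *Bcl2l1*, encoding the survival factor BCL-XL (-0.33, adjusted p = 0.179 from limma), and *Jak2*, the kinase bound to the beta chain (0.23, adjusted p = 0.353 from limma). The signal transducers *Stat5a* and *Stat5b* differed by 0.07 and 0.09.

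In the TGF-beta branch, *Tgfb1*, the ligand gene, had 11.98 and 11.99 in *Trem-2*-/- cells and 12.00 and 11.97 in WT cells (log2 fold change 0.0019, 95% interval -0.17 to 0.17). *Tgfbr1* had 12.07 and 12.06 in *Trem-2*-/- cells against 12.10 and 12.11 in WT cells (-0.04, 95% interval -0.21 to 0.13), and *Tgfbr2* had 10.85 and 10.83 in *Trem-2*-/- cells and 10.84 and 10.81 in WT cells (0.01, 95% interval -0.16 to 0.18). Their downstream mediators *Smad2* and *Smad3* lay higher on both *Trem-2*-/- arrays without passing. *Smad2* had 9.85 and 9.82 in *Trem-2*-/- cells against 9.76 and 9.71 in WT cells (0.10, 95% interval -0.07 to 0.28). *Smad3* had 6.32 and 6.26 in *Trem-2*-/- cells against 6.21 and 5.99 in WT cells (0.19, 95% interval -0.04 to 0.42), the widest interval among the regulators. It was also the only regulator below the upper quartile. For the 5 genes of this branch the adjusted p was 0.515 to 0.995 from limma.

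Of 27 other TGF-beta pathway genes none passed in limma, and SAM called 3 as higher. These were *Itgb6*, the beta chain of an epithelial integrin that activates TGF-beta, with 5.96 and 5.54 in *Trem-2*-/- cells against 4.86 and 5.04 in WT cells (log2 fold change 0.80, adjusted p = 0.121 from limma), *Tgfb2*, a further ligand (0.63, adjusted p = 0.103 from limma), and *Ltbp1*, which holds latent TGF-beta in the matrix (0.52, adjusted p = 0.0578 from limma).

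The 6 transcription factors differed by -0.03 to 0.03. *Pparg* had 10.18 and 10.18 in *Trem-2*-/- cells and 10.25 and 10.15 in WT cells, a log2 fold change of -0.02 (95% interval -0.20 to 0.17). *Bhlhe40* had 10.04 and 10.01 in *Trem-2*-/- cells and 10.11 and 10.00 in WT cells (-0.03, 95% interval -0.22 to 0.16). *Bhlhe41* had 11.73 and 11.74 in *Trem-2*-/- cells and 11.74 and 11.75 in WT cells (-0.0087, 95% interval -0.18 to 0.16). In all 3 the arrays of the genotypes overlapped.

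*Cebpa*, a factor of myeloid differentiation, had 10.50 on both *Trem-2*-/- arrays and 10.51 and 10.50 in WT cells (-0.0065, 95% interval -0.18 to 0.16). *Cebpb*, its relative induced by inflammation, had 10.56 and 10.56 in *Trem-2*-/- cells and 10.44 and 10.62 in WT cells (0.03, 95% interval -0.18 to 0.25). *Spi1*, encoding PU.1, the master factor of the myeloid lineage, had 11.36 and 11.38 in *Trem-2*-/- cells and 11.33 and 11.36 in WT cells (0.03, 95% interval -0.14 to 0.20). Over these 6 factors the adjusted p was 0.913 to 0.982 from limma, and every interval lay between -0.22 and 0.25. The intervals carry no adjustment for testing many genes, and smaller differences remain possible.

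**Figure D3:**
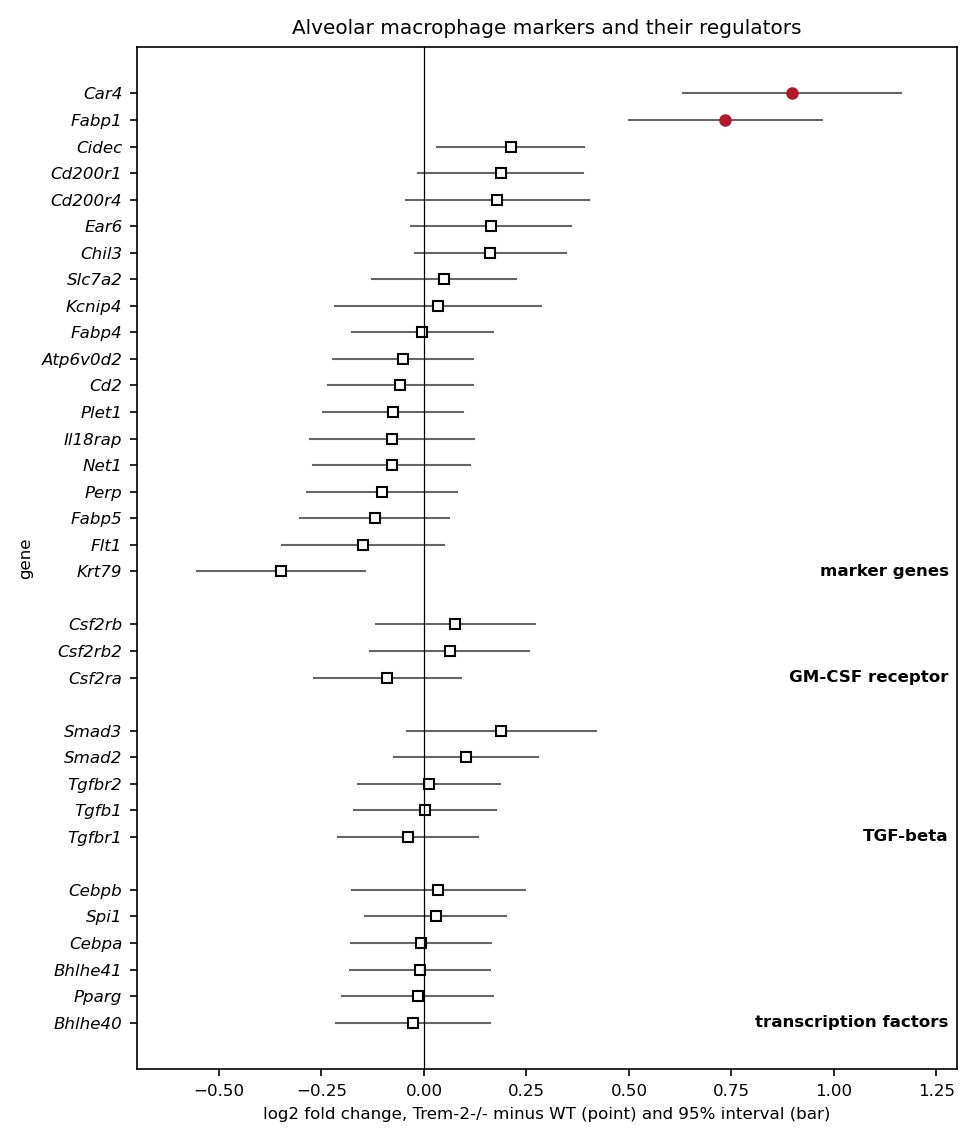
Log2 fold change, *Trem-2*-/- with WT subtracted, for the 33 genes by role, from 2 arrays per genotype. Points are limma estimates and bars 95% intervals; red circles passed at an adjusted p below 0.05 and open squares did not. All 14 regulator intervals include 0, and they run from -0.27 to 0.42.

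Of 27 partners and targets of PPAR-gamma, 1 rose and 2 fell in limma. *Scd1* and *Scd2*, desaturases that make monounsaturated fatty acids, fell by 0.95 (adjusted p = 0.0159 from limma) and by 0.71 (adjusted p = 0.0197 from limma) on the log2 scale. *Scd1* had 8.03 and 8.03 in *Trem-2*-/- cells against 9.08 and 8.87 in WT cells. *Scd2* had 10.60 and 10.60 in *Trem-2*-/- cells against 11.34 and 11.28 in WT cells. *Abca1*, a cholesterol exporter, had 9.09 and 9.11 in *Trem-2*-/- cells against 8.53 and 8.33 in WT cells, a rise of 0.67 (adjusted p = 0.0490 from limma). When single arrays were dropped, the log2 fold change was -1.05 to -0.85 for *Scd1*, -0.74 to -0.68 for *Scd2* and 0.57 to 0.77 for *Abca1*. None of these calls held in all such fits, in which fewer genes of the whole table passed too. The other genes of this list did not pass, among them *Lpl* (-0.08), *Plin2* (-0.03), *Cd36* (-0.25), *Angptl4* (0.33), *Pdk4* (0.29) and the receptor's partner *Rxra* (0.02). Of the 27, 14 were above 0 and 13 below, with a median of 0.02.

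Among 19 further AM markers, *Serpinb1a*, an inhibitor of neutrophil proteases, fell by 0.73 on the log2 scale, with a mean of 8.22 in *Trem-2*-/- cells against 8.94 in WT cells (adjusted p = 0.0228 from limma). When single arrays were dropped, its log2 fold change was -0.79 to -0.66, and its call did not hold in all such fits. None rose in limma. *Krt19*, a keratin shared with epithelium, was called by SAM as higher (log2 fold change 0.55, adjusted p = 0.0578 from limma), and *Ccnd2*, a cyclin of the G1 phase, was at -0.50 (adjusted p = 0.0576 from limma). *Itgax*, *Siglecf* and *Marco* were at -0.12, -0.21 and 0.18 (adjusted p = 0.377 to 0.577 from limma). The median over these markers was -0.02.

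Some markers of other cells rose, as did *Car4* and *Fabp1*. Of 14 measured markers of interstitial or monocyte-derived macrophages, 7 rose and none fell, *Pf4* (1.98), *Apoe* (1.67), *Tmem176b* (1.26), *H2-Aa* (1.02), *Ccr2* (0.81), *Cx3cr1* (0.67) and *Cd14* (0.56), at adjusted p = 0.00145 to 0.0468 from limma and with a summed linear signal of 16520 to 17020 in *Trem-2*-/- cells against 11990 on both WT arrays. The other 7 did not pass. Of the 14, 11 were above 0 and 3 below, *Lyve1* (-0.09), *Folr2* (-0.07) and *Maf* (-0.01). Of 13 lung epithelial markers 2 rose and none fell, *Cldn18* (1.23, adjusted p = 0.00831 from limma) and *Scgb1a1* (0.91, adjusted p = 0.0154 from limma). SAM called 4 of the 13 as higher, these and the keratins of simple epithelium *Krt18* (0.95) and *Krt8* (0.83), for each of which limma gave an adjusted p = 0.155. The summed signal was 1462 to 1483 in *Trem-2*-/- cells against 1017 to 1044 in WT cells. Of the 13, 10 were above 0 and 3 below, *Sftpb* (-0.10), *Epcam* (-0.09) and *Sftpa1* (-0.08). None of the 13 lay above the upper quartile on all arrays. When single arrays were dropped, the calls of *Pf4*, *Apoe* and *Tmem176b* held in every fit. Those of *Ccr2*, *Cx3cr1*, *Cd14*, *Scgb1a1*, *H2-Aa* and *Cldn18* did not, and fewer genes of the whole table passed in these fits too. The log2 fold change was then 1.84 to 2.13 for *Pf4*, the largest of these, and 0.52 to 0.60 for *Cd14*, the smallest. *Cd14* was also lost after quantile normalization (adjusted p = 0.0537 from limma). The part of these markers in the differences of *Car4* and *Fabp1* was not tested. In pooled lavage cells, more cells of a type and more RNA per cell cannot be told apart.

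Of 8 eosinophil markers 1 rose, *Alox15* (1.52, adjusted p = 0.00104 from limma), while *Epx*, which encodes eosinophil peroxidase, differed by -0.0087, and no marker of neutrophils, T and NK cells, B cells or dendritic cells passed in limma. SAM called *Csf3r*, a neutrophil growth factor receptor, as higher (0.64, adjusted p = 0.0702 from limma). The 33 genes as a whole had a summed linear signal of 68560 to 69170 in *Trem-2*-/- cells and 68050 to 68840 in WT cells, ranges that overlap.

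**Figure D4:**
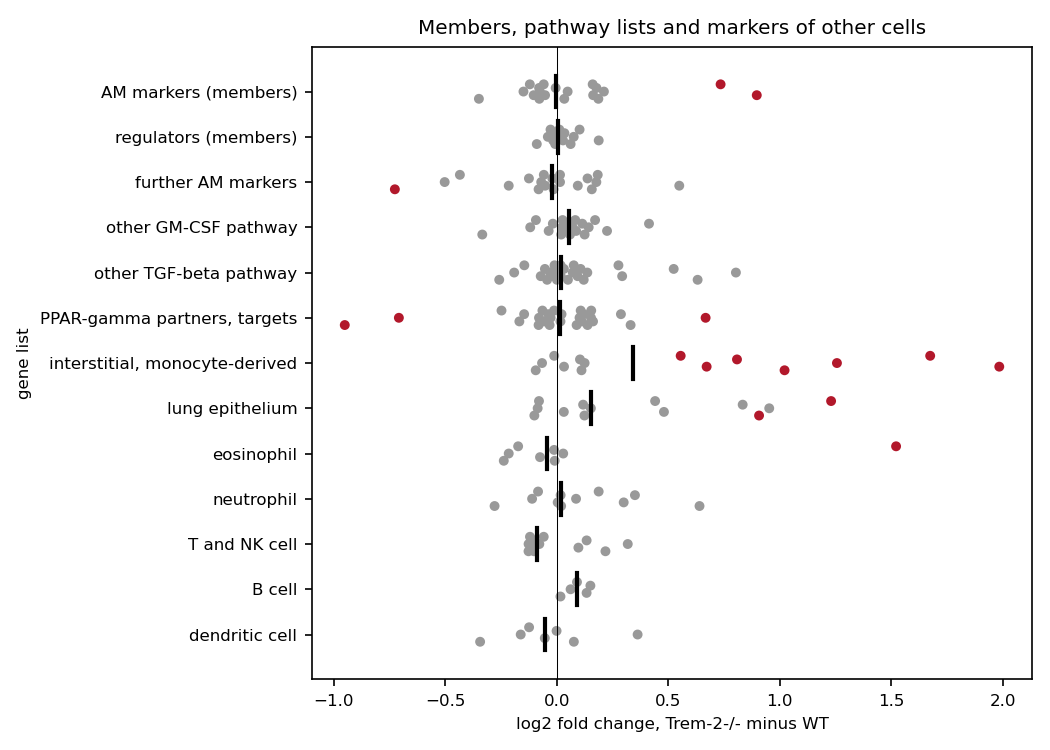
Log2 fold change, *Trem-2*-/- with WT subtracted, for each measured gene in the AM list, split into markers and regulators, in 4 related lists and in 7 lists of other cell types. Genes that passed limma (adjusted p below 0.05) are red, the rest are grey, and each black bar is the median of its list, -0.0045 for the AM markers, 0.0070 for their regulators and 0.34 for interstitial or monocyte-derived markers.

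The arrays of the genotypes did not overlap in 21 of the 33 genes, 11 higher and 10 lower in *Trem-2*-/- AM, against 42.8% of all genes (17.4% higher and 25.4% lower). This held for 15 of the 19 markers and 6 of the 14 regulators. The replicates of these genes lay close together, with a median SD of 0.03 in *Trem-2*-/- cells and 0.04 in WT cells, where all genes had 0.06 and 0.07. The 33 genes are also brighter, with 26 above the upper quartile on all 4 arrays, against 5563 of all 19946 genes. No comparison with genes of like brightness was made, for the SD or for the overlap. The median size of the difference was 0.12 for the markers and 0.03 for the regulators, against 0.08 for all genes. None of the 33 genes lies on chromosome 17, which carries *Trem2*. They are spread over 17 chromosomes, with 5 on chromosome 6 (*Fabp1*, *Cidec*, *Pparg*, *Bhlhe40* and *Bhlhe41*), of which only *Fabp1* passed.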

How the data were processed

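Affymetrix mouse Gene 1.0 ST arrays measured AM RNA from 2 *Trem-2*-/- and 2 WT pools. The values deposited by the authors are log2 values from RMA, in which background correction and quantile normalization precede a summary per probe set. RMA and the genome build mm9 are named in the submitters' processing notes. The number of arrays, 2 per genotype, limits the precision.

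Gene names come from the platform's annotation. It gives exactly 1 symbol for 21797 probe sets, which were used, several for 1613, and none of the remaining 12147 appear in it. Gene identifiers linked 21698 probe sets to RefSeq (GRCm38.p6). Where a gene had several probe sets (999 genes), the brightest on average was taken. The test was limma 3.58.1 under R 4.3.3 (lmFit, eBayes), two-sided and unblocked, with Benjamini-Hochberg adjustment across 19946 genes. SAM, named in the methods, served as an alternative because only 6 assignments of the arrays exist. Both were tested on simulated data.

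The genes and lists were chosen with earlier results of these data known. By rule, every listed gene is accounted for. Values with fold changes and an interval or adjusted p are given for listed genes past the threshold in limma, SAM or another setting, for the 14 regulators and for the cell type markers, and the remaining markers are given by ranges with up to 6 examples. From each pathway list come the genes that passed, or else up to 3 of the largest differences. Further genes named from these lists or from those of other cell types were chosen after their values were seen. Other settings tried were the methods' t-test, limma with a trend on intensity and robust variance, a replicate block, quantile normalization or median centring of the deposited values, a mean log2 of at least 6, averaged probe sets, all rows, a log2 fold change of at least 1, and omission of single arrays.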

Additional observations from a re-analysis of the deposited data

How the results depend on the processing

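The count of AM genes past the threshold was 2 in limma, and also 2 under SAM (0.983% of all genes), median centring and the mean of probe sets. It was 2 as well with the filter on mean values, which removed only *Il18rap* from the list. Of the 10783 genes kept by that filter 3.31% passed, against 0.567% of all genes in the main fit. It was 6 with the methods' t-test unadjusted at 0.05 (9.19% of all genes) and 4 under the trend with robust variance (3.35% of all genes). With quantile normalization it was 1 (0.562% of all genes), where *Fabp1* was lost (adjusted p = 0.053 from limma). After Benjamini-Hochberg adjustment of the methods' t-test it was 0 (0% of all genes). The count was also 0 with all rows as probe sets (0.0702% of all genes) and with a minimum log2 fold change of 1 (0.211% of all genes). With 1 array left out, the arm left with 1 array was taken to vary like the other, so effect sizes are given. The log2 fold change was 0.75 to 1.04 for *Car4* and 0.62 to 0.85 for *Fabp1*, and neither kept its call in all such fits. Over the whole table, fewer genes passed in these fits too. The related pathway lists had 4 calls in limma, 8 under SAM, and 19 under the methods' t-test before and 0 after adjustment. They had 19 with an intensity trend, 9 with the filter, 0 with all rows and 0 with the minimum fold change. The lists of other cell types had 10 calls in limma, 13 under SAM, and 15 under the methods' t-test before and 0 after adjustment. For these lists it was 15 with an intensity trend, 14 with the filter, 9 with quantile normalization, 1 with all rows and 6 with the minimum fold change. *Trem2*, at -2.11, failed only the adjusted methods' t-test (-2.11, adjusted p = 0.406). The median difference of the AM genes stayed between -0.0091 and 0.016, and 20 or 21 of them had arrays that did not overlap. That split was 11 higher and 10 lower, but 9 and 11 after quantile normalization and 13 and 8 after median centring. The sign turned for *Tgfb1* and *Tgfbr2* after quantile normalization and for *Fabp4* and *Cebpa* after median centring, genes whose differences were between -0.01 and 0.01.

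With the replicate number as a block, 2 AM genes passed, the same *Car4* (adjusted p = 0.0153 from limma) and *Fabp1* (adjusted p = 0.0301 from limma), as did the same 4 genes of the pathway lists. Of markers of other cells 12 passed, of which 9 were among the 10 without the block. *Cd14* was lost (adjusted p = 0.0565 from limma), and *Csf3r*, *Krt18* and *Krt8* were gained (adjusted p = 0.0301, 0.0132 and 0.0243 from limma). The deviations of same-numbered arrays correlated at -0.05 over all genes, a value that cannot show a pairing confined to some genes. Whether same-numbered arrays share more than a number was not tested.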

Other observations

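*Car4* and *Flt1* are also known from lung endothelium, so 12 endothelial genes, picked after the values above were seen, are given here as values. *Ednrb*, an endothelin receptor, had 6.22 and 6.47 in *Trem-2*-/- cells against 5.23 and 4.93 in WT cells (log2 fold change 1.27, adjusted p = 0.0197 from limma) and was the only one that passed. The median of the 12 was -0.16, with 9 below 0, among them *Vwf*, the von Willebrand factor gene (-0.37), and *Plvap*, of fenestral diaphragms (-0.31). Their summed linear signal without *Flt1* was 904.3 to 933 in *Trem-2*-/- cells against 1037 to 1061 in WT cells. *Vwf* had 8.94 and 8.87 in *Trem-2*-/- cells against 9.30 and 9.26 in WT cells. It was the only 1 of these 11 genes above the upper quartile on all arrays and weighs most in that sum, which is thus no measure of the list as a whole. How these values bear on *Car4* was not tested.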
